A study of Mus musculus with 18 samples.

Results

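The comparison set the chromatin of CARM1 knockout tumors against that of NFIB mutant tumors in ATAC-seq, an assay in which a transposase cuts open DNA and the reads at a site measure how accessible it is. All 6 libraries whose labels name the genotypes TKO;Carm1KO and TKO;NfibR388K were taken, 3 of each, out of 9 ATAC-seq libraries and 18 libraries of both assays. Every peak of the common set was compared, which gave 111664 peaks, of which 111116 had enough reads to be tested. The study asked whether losing the methyltransferase CARM1 and losing the arginine of NFIB that it methylates act through the same chromatin in small cell lung cancer (SCLC). All mice carried conditional alleles of Rb1, Trp53 and a further retinoblastoma family gene (Rbl1 in the sample labels, Rbl2 in the Results), and these 3 deletions alone make the TKO tumors. TKO;Carm1KO mice had a conditional Carm1 allele in addition, deleted by the same Cre. TKO;NfibR388K mice had arginine 388 of NFIB replaced by lysine in the germline (R388K), so that every cell of the mouse, not the tumor alone, carried the change. Adenoviral Cre was delivered to the lungs at 8 weeks of age and the cells were taken 28 weeks later, from 3 independent animals per genotype. The cells were sorted for a tdTomato reporter that Cre turns on, which marks the cells Cre reached and not a cell type. The mice were of a mixed C57BL/6 and FVB129/N background, the knock-in founders had been crossed to C57BL/6, and the text names both tumor biopsies and cancer cell lines as the source. The strain share of each animal and the source of each library were not given in the sources used here.

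CARM1 (also PRMT4) places asymmetric dimethyl groups on arginines of histones and of transcription regulators and acts with them as a coactivator. NFIB belongs to the nuclear factor I family, which binds DNA as dimers at paired TTGGC sites and is known for opening distal chromatin in metastatic SCLC. SCLC is a neuroendocrine cancer, with chromogranins and synaptophysin as its markers. The change in NFIB lies outside its DNA-binding domain and removes 1 methylation site, while loss of CARM1 removes methylation from all of its substrates.

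The sequences at the sites that leaned furthest give a view of what was compared. They are the middle 300 bases of the 4 peaks higher in CARM1 knockout and the 3 higher in NFIB mutant tumors that had the smallest p by the naming rule given further on, on the plus strand of GRCm38 from RefSeq, in lower case with motif matches in capitals. Motifs of 11 kinds were searched on both strands, and their letters are given with their shares further on. A match is a description of letters and not a site of binding. The first 4 were more open in CARM1 knockout tumors, and the capitals mark a forkhead and an E-box match, a GATA match, a RUNX, an E-box and a GATA match, and a TEAD match and an NFI half-site.
near Smim15, chr13:107619510-107619809: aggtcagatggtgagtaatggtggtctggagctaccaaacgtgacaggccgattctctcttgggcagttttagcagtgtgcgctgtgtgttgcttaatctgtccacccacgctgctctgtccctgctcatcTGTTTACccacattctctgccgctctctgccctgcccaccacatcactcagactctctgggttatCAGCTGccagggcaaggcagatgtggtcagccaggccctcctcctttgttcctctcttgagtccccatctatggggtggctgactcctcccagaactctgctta
intron of BC067074, chr13:113340898-113341197: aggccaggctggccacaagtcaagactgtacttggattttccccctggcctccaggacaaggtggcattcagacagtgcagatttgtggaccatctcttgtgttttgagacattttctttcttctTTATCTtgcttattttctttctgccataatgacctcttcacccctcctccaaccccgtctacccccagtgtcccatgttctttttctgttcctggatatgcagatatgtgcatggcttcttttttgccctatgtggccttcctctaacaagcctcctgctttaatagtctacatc
near Egln3, chr12:54118312-54118611: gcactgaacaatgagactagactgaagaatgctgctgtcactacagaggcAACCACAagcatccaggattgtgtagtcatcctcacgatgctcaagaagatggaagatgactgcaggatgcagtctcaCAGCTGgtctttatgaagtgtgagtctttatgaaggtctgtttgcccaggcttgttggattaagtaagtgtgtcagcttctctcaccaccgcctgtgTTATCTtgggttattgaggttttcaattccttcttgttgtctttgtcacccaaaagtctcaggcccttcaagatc
intron of Glp1r, chr17:30911249-30911548: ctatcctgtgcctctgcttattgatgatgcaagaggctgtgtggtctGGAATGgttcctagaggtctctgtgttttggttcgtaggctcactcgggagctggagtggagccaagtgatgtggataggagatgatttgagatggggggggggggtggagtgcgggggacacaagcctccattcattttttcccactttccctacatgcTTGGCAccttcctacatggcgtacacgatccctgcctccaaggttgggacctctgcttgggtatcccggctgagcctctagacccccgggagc
The other 3 were more open in NFIB mutant tumors, and the capitals mark an E-box match in the first, nothing in the second and 2 NFI half-sites in the third.
near Ddr1, chr17:35736385-35736684: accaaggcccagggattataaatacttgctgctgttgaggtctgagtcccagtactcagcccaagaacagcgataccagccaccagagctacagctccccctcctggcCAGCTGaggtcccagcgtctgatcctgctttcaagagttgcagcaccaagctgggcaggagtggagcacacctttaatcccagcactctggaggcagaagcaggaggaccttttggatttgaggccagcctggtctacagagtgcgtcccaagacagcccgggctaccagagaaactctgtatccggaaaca
intron of Ltbp1, chr17:75275453-75275752: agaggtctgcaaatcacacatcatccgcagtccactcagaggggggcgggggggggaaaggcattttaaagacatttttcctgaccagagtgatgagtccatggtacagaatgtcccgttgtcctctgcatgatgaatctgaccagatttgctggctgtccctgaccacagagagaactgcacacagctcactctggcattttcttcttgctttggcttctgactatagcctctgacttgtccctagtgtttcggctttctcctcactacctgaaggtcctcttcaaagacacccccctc
intron of Eri3, chr4:117651589-117651888: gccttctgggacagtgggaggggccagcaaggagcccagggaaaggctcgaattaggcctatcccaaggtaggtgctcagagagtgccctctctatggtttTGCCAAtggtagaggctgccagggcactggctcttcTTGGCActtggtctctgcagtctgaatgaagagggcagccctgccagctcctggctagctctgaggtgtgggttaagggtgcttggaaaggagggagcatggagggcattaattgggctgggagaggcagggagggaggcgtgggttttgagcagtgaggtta

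No peak was called different between the mutants. The test was the quasi-likelihood test of edgeR on TMM-scaled counts, in 1 model of all 9 libraries, with p-values adjusted over all peaks by the method of Benjamini and Hochberg. A call needed an adjusted p below 0.1 together with a log2 fold change of 0.5 or more in size. The smallest adjusted p was 0.124 (0% of the peaks called). Before adjustment, 3940 peaks were higher in CARM1 knockout tumors at p under 0.05 (3.55% of those tested) and 2873 higher in NFIB mutant tumors (2.59%), 6.13% of the peaks together. All 3 CARM1 knockout libraries lay above all 3 NFIB mutant libraries in 6442 peaks (5.8%), and the reverse held in 6637 (5.97%). The median absolute log2 fold change was 0.35. DESeq2, run on the same counts and limits, called 1075 peaks, 528 higher in CARM1 knockout and 547 higher in NFIB mutant tumors, and 1005 of these had no overlap between the mutants' libraries. The study itself used DESeq2 with these limits and reported almost no difference between the mutants. It took the depth of each library from start-site peaks of evenly expressed genes, which the DESeq2 run here did not. The count also turned on single libraries, since edgeR called 50 peaks without TKO replicate 3 (23 higher in CARM1 knockout), 4 without CARM1 knockout replicate 1 and 1 without NFIB mutant replicate 2. A fit of the 6 mutant libraries alone called 16.

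**Figure D1:**
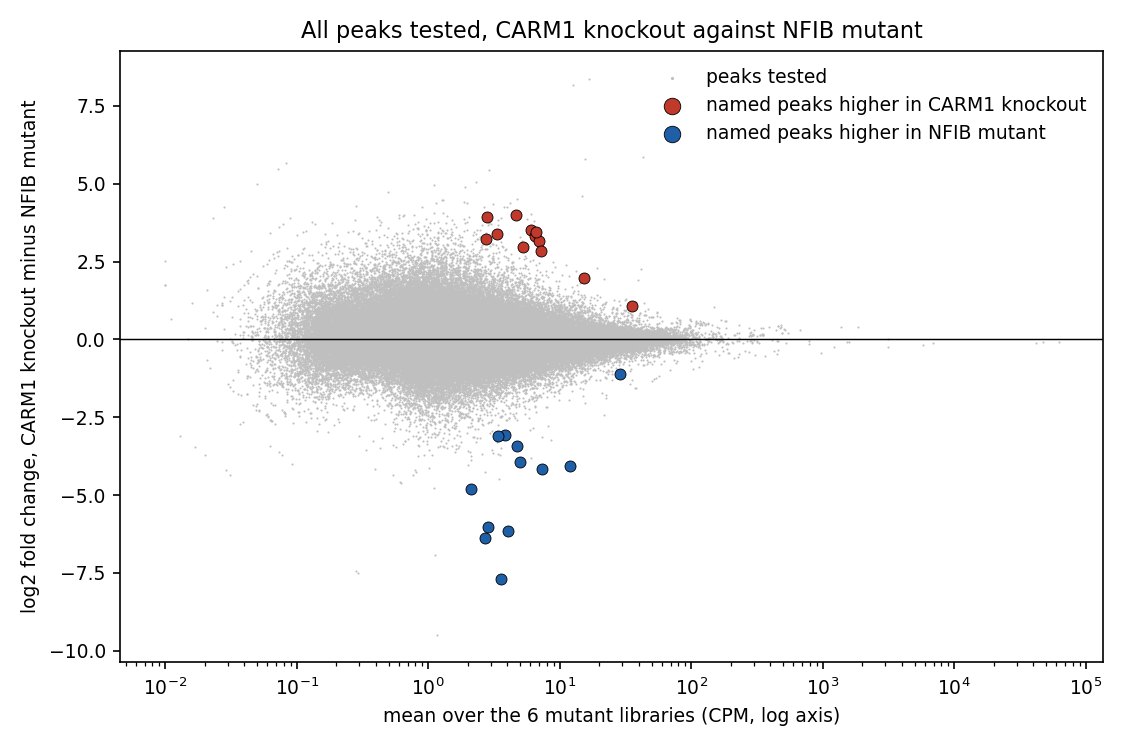
Each grey point is 1 of the 111116 peaks tested, with its mean over the 6 mutant libraries in CPM (scaled counts per 1e6 counted reads) on a log axis and the log2 fold change, CARM1 knockout minus NFIB mutant, on the vertical axis. The 24 named peaks stand out in red (higher in CARM1 knockout, log2 fold change 1.07 to 3.98) and blue (higher in NFIB mutant, -1.13 to -7.69), while peaks with many reads keep close to 0.

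Pairs of libraries within a genotype overlapped with pairs between the mutants in how much they differed. The median absolute log2 ratio over all peaks was 0.359 for the 3 pairs within CARM1 knockout (0.350 to 0.369), 0.378 for the 3 pairs within NFIB mutant (0.366 to 0.393) and 0.376 for the 9 pairs between them (0.347 to 0.420). By Pearson's r over peaks, which are not independent replicates, CARM1 knockout replicate 1 was nearest to NFIB mutant replicate 2 (0.929) and replicate 2 was nearest to NFIB mutant replicate 1 (0.918). Of the 3 CARM1 knockout libraries 1 had its nearest neighbour in its own genotype, against 3 of the 3 NFIB mutant libraries. The mean r was 0.916 within CARM1 knockout, 0.921 within NFIB mutant and 0.911 between them. The spread within TKO was uneven, with 0.30 between its first 2 libraries and 0.478 and 0.490 between these and TKO replicate 3, and it entered the error of the comparison because the model shares 1 estimate of the spread.

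The precision of the comparison depended on the reads of a peak. The half-width of the 95% interval of the log2 fold change had a median of 1.19 over all peaks, so a difference of about 2.28-fold in either direction lay within it. It was 1.5 for the 33189 peaks under 1 CPM, 1.24 for the 35506 peaks of 1 to 3 CPM, 1.03 for the 24225 peaks of 3 to 10 CPM and 0.54 for the 18196 peaks over 10 CPM. The interval lay within 1 of 0 on the log2 scale, which leaves out a 2-fold change either way, for 16.3% of all peaks and for 73.4% of those over 10 CPM. A width of 2, a 4-fold change, held 69.3% of all intervals. For the other peaks these 6 libraries show neither a difference nor its absence.

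**Figure D2:**
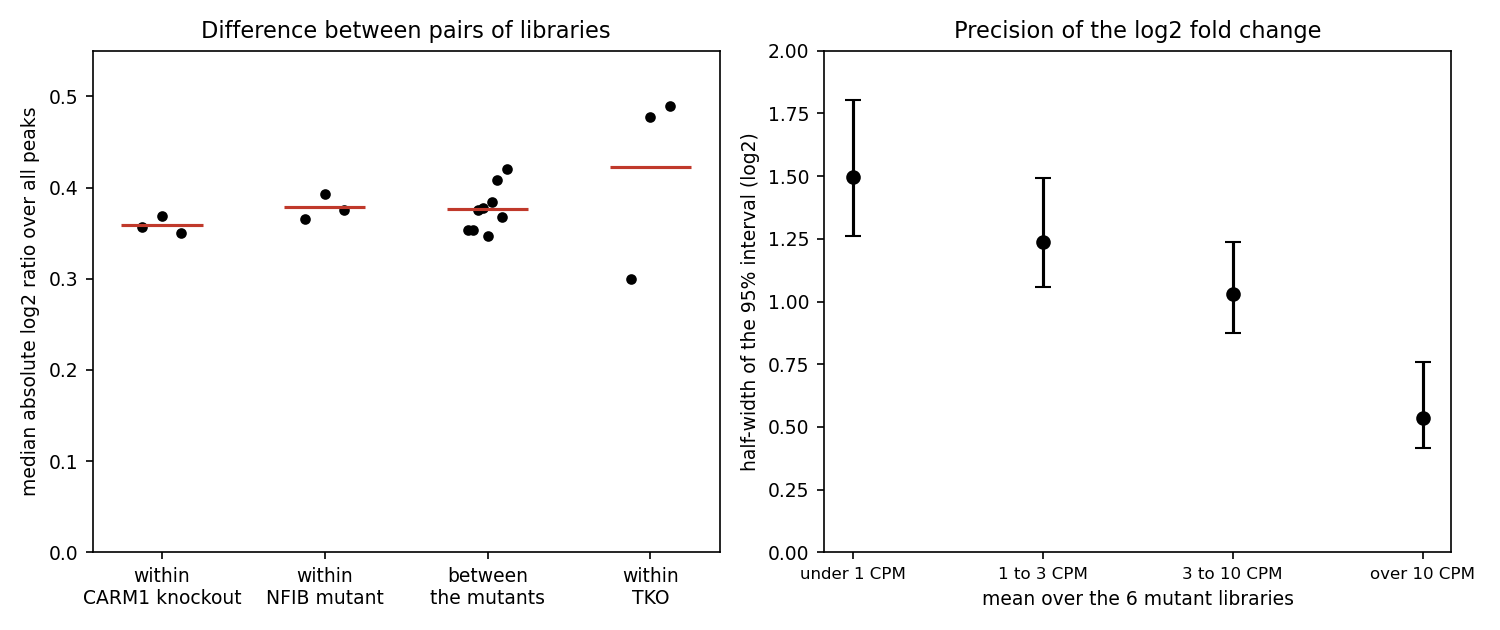
On the left each point is the median absolute log2 ratio of 1 pair of libraries over all peaks and the red line is the mean, with the 9 pairs between the mutants (0.347 to 0.420) spread about the pairs within each mutant. On the right the point is the median half-width of the 95% interval of the log2 fold change and the bars are the quartiles on either side, by the mean CPM of the peak, falling from 1.5 to 0.54.

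The depth and identity of the libraries bear on every locus below. Peaks held 26917178 to 47653979 reads in a library, and 3 reads, taken as the floor of detection, stood for 0.0576 to 0.127 scaled CPM. These floors cover counting error only, and PCR copies are not independent molecules. The intervals of the log2 fold change came from the edgeR fit, and their error includes the spread between libraries. The cells are labelled as SCLC, and the markers of that type were largely absent from the RNA-seq of the mutants. Chga, the chromogranin A gene, had 125 to 336 CPM in TKO libraries, 0.203, 0.525 and 211 CPM in CARM1 knockout and 1.34, 0.247 and 0.191 CPM in NFIB mutant libraries, so that CARM1 knockout replicate 3 alone of the mutant libraries kept it. The adhesion molecule gene Ncam1 still had 14.2 CPM or more in every mutant library. Col1a1, a fibroblast collagen, had 2372 to 10055 CPM in the mutant libraries and at most 3.85 CPM in TKO. Fewer neuroendocrine cells and less RNA per cell cannot be told apart in bulk samples. Sex differed in 1 tumor, since NFIB mutant replicate 1 alone had RNA of the 4 Y-linked genes read (17.3 to 31.4 CPM, at most 0.185 CPM in the other libraries) and had 5.47 CPM of Xist, the RNA of the inactive X, against 405 to 701 CPM in the other mutant libraries. The part of sex in the lean of any locus was not tested. The alleles themselves were hardly visible in these counts. The study read them at the protein level, where immunoblots of tumor biopsies showed loss of NFIB methylation in both mutants. Carm1 RNA had 63.4, 79.1 and 50.8 CPM in CARM1 knockout against 100, 104 and 102 CPM in NFIB mutant libraries, without overlap but not called (edgeR log2 fold change -0.66, adjusted p 0.571). TKO libraries, with Carm1 intact, had 97.7, 103 and 44.5 CPM, the last below every CARM1 knockout library, and a count over the whole gene says nothing of the exons deleted by Cre. Accessibility summed over the 6 peaks of the Carm1 locus was 90.4, 97.2 and 97.4 against 81.1, 103 and 87.0 CPM. The 61 peaks of the Nfib locus summed to 156, 220 and 147 CPM in CARM1 knockout and 182, 168 and 212 CPM in NFIB mutant libraries, which overlapped.

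Because nothing was called, the loci described are those that leaned most by a rule. In each direction it took the 12 peaks with the smallest unadjusted p among peaks with at least 3 CPM in the higher mutant and no overlap between the mutants' libraries, 1 per 100000 bp. No overlap is thus part of the rule and not a finding. Their adjusted p from edgeR ran from 0.124 to 0.174. The log2 fold changes and intervals given for these peaks come from the same libraries that the rule used. They were not corrected for that choice, so they tend to overstate the differences. The intervals are thus no evidence of a difference by themselves. The same holds for the gene loci and windows named further on by their smallest p.

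The peak with the smallest p on the CARM1 knockout side was intergenic (chromosome 13, 107618959 to 107620359), with the start site of Smim15 nearest at 424787 bp. It had 8.06, 15.9 and 9.72 CPM in CARM1 knockout libraries, 1.05, 0.746 and 1.16 CPM in NFIB mutant libraries and 1.63, 2.60 and 1.65 CPM in TKO. The 3 CARM1 knockout libraries stood above the other 6, with a log2 fold change of 3.51 between the mutants (95% interval 2.53 to 4.49, edgeR adjusted p 0.132). A second site on chromosome 13, from 113340389 to 113341706, sits in an intron of BC067074, 1501 bp from a start site of that gene. Its accessibility was 8.99, 14.7 and 12 CPM in CARM1 knockout against 0.777, 1.47 and 1.30 CPM in NFIB mutant and 0.574 to 0.834 CPM in TKO libraries. Again the CARM1 knockout libraries alone were open, at a log2 fold change of 3.33 (2.39 to 4.26, adjusted p 0.132).

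Egln3 encodes a prolyl hydroxylase that marks hypoxia-inducible factor for destruction. A peak 85399 bp from its start site, on chromosome 12 from 54117907 to 54119016, had 5.32, 6.34 and 6.53 CPM in CARM1 knockout libraries and 0.389, 0.553 and 0.765 CPM in NFIB mutant libraries, a log2 fold change of 3.40 (2.40 to 4.39, edgeR adjusted p 0.132). TKO libraries, at 0.649 to 1.06 CPM, were as low as the NFIB mutant libraries. The RNA of Egln3 overlapped between the mutants, with 88.2, 74.0 and 158 CPM against 162, 67.1 and 16.8 CPM (log2 fold change 0.38). Tmx1 encodes a thioredoxin-related protein of the endoplasmic reticulum, and the nearest peak named, 154940 bp from its start on chromosome 12 (70613987 to 70615576), was open in both mutants to unequal degrees. Its values were 23.6, 28.8 and 20.6 CPM in CARM1 knockout libraries, 4.99, 6.95 and 6.65 CPM in NFIB mutant and 0.669 to 1.11 CPM in TKO libraries, a log2 fold change of 1.97 between the mutants (adjusted p 0.174).

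Glp1r, the receptor of the incretin hormone GLP-1, carried a peak in its intron on chromosome 17 (30910410 to 30912387) that was low in NFIB mutant tumors only. It had 15.4, 10.3 and 12 CPM in CARM1 knockout and 11.1, 7.32 and 19.4 CPM in TKO libraries, but 1.05, 1.30 and 1.83 CPM in NFIB mutant libraries. CARM1 knockout and TKO libraries overlapped, and the log2 fold change between the mutants was 3.17 (2.22 to 4.12, edgeR adjusted p 0.132). Clstn2 encodes calsyntenin 2, a synaptic adhesion protein, and its promoter peak on chromosome 9 (98031909 to 98034022) was also kept in part by CARM1 knockout tumors. It had 24.1 to 31.9 CPM in TKO, 4.0, 22.5 and 9.70 CPM in CARM1 knockout and 1.34, 1.15 and 0.824 CPM in NFIB mutant libraries, with CARM1 knockout replicate 2 alone near TKO (log2 fold change 3.45, adjusted p 0.174). Clstn2 RNA was 0.949, 46.0 and 60.8 CPM in CARM1 knockout and 0.243, 0.308 and 0 CPM in NFIB mutant libraries. TKO had 19.9, 18.8 and 4.25 CPM, so CARM1 knockout replicates 2 and 3 stood above TKO in RNA, unlike at the peak.

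The promoter of Glo1 and the neighbours Tmeff1 and Cavin4 leaned to CARM1 knockout in both assays. Glo1 encodes glyoxalase 1, which detoxifies methylglyoxal from glycolysis. Its promoter peak on chromosome 17 (30611297 to 30613430) had 49.8, 47.8 and 47.0 CPM in CARM1 knockout and 19.9, 23.1 and 25.8 CPM in NFIB mutant libraries, with 32.3 to 45.7 CPM in TKO. The means of the mutants were 48.2 ± 1.43 against 22.9 ± 2.95 CPM (SD, n = 3), a log2 fold change of 1.07 (0.71 to 1.44, edgeR adjusted p 0.174). Glo1 RNA was 170, 163 and 158 CPM in CARM1 knockout against 63.2, 54.8 and 87.4 CPM in NFIB mutant and 48.9 to 81.1 CPM in TKO libraries, a log2 fold change of 1.26 that was not called (edgeR adjusted p 0.357). Tmeff1 encodes a transmembrane protein with follistatin-like domains, and Cavin4, next to it, a muscle protein of caveolae. The Cavin4 promoter peak on chromosome 4 (48663227 to 48664790) had 10.7, 18.5 and 8.51 CPM in CARM1 knockout and 1.73, 1.80 and 1.77 CPM in NFIB mutant libraries, while TKO had 0.556 to 1.01 CPM. The sum over the 3 peaks of the Tmeff1 locus, which includes it, was 24.8, 35.0 and 22.9 CPM against 9.72, 7.56 and 11.2 CPM (log2 fold change 1.54, adjusted p 0.145 over gene loci). TKO libraries had 36.6, 32.8 and 33.0 CPM over that locus. Tmeff1 RNA leaned the same way between the mutants, with 30.8, 48.9 and 35.6 CPM against 8.39, 2.40 and 4.64 CPM (log2 fold change 2.90, edgeR adjusted p 0.205). In TKO it had 124 to 205 CPM, far above CARM1 knockout, though the locus sums of the 2 genotypes were close. Cavin4 RNA was 2.91, 9.56 and 2.75 CPM in CARM1 knockout and 1.88, 0.247 and 0.572 CPM in NFIB mutant libraries. TKO libraries, where the promoter peak was low, had 5.38, 5.64 and 4.79 CPM, so Cavin4 RNA did not track the peak across the 3 genotypes.

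The 4 other named peaks on this side lay in an intron of Zfp407 on chromosome 18 (84210174 to 84211191), 18065 bp from the start of Sim2 on chromosome 16 (94066051 to 94067681), 333336 bp from Emp1 on chromosome 6 (135700397 to 135701261) and at the olfactory receptor gene Olfr101 on chromosome 17 (37299543 to 37300184). Their means were 4.96, 9.29, 5.22 and 8.73 CPM in CARM1 knockout and 0.533, 1.18, 0.350 and 0.554 CPM in NFIB mutant libraries. At Olfr101 the CARM1 knockout libraries spread widely, from 2.87 to 15.9 CPM, and its peak has 2 near copies in the genome (at least 90% identity over 150 bases or more), so its reads may belong to another place. Over all 12 peaks TKO was low, at or under 2.60 CPM in every library, except at Glp1r, Glo1 and Clstn2, where it was at 7.32 CPM or more.

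On the NFIB mutant side the peak with the smallest p lay on chromosome 17 (35736135 to 35736933), and the nearest start site, at 31913 bp, was that of Ddr1, a collagen receptor gene. It had 8.31, 3.25 and 5.24 CPM in NFIB mutant libraries and 0.0258, 0.0960 and 0.121 CPM in CARM1 knockout libraries, where at most 5 reads were counted. TKO libraries, at 0.525 to 1.27 CPM, lay between them, and the log2 fold change was -6.04 (-7.57 to -4.50, edgeR adjusted p 0.124). Ltbp1 encodes a protein that holds latent TGF-beta in the matrix. The peak in its intron on chromosome 17 (75275348 to 75275856) had 5.23, 2.96 and 4.2 CPM in NFIB mutant and 0.207, 0.134 and 0.0967 CPM in CARM1 knockout libraries, with 0.159 to 0.309 CPM in TKO. Only the NFIB mutant libraries were open there, at a log2 fold change of -4.80 (adjusted p 0.124), while Ltbp1 RNA overlapped at 445, 916 and 232 against 403, 500 and 490 CPM.

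A site on chromosome 4, in an intron of Eri3 (117650920 to 117652556), a member of an exoribonuclease family, was highest in TKO and lowest in CARM1 knockout tumors. It had 24.1, 22.5 and 26.5 CPM in TKO, 16, 4.84 and 21.2 CPM in NFIB mutant and 0.853, 0.595 and 0.895 CPM in CARM1 knockout libraries (log2 fold change -4.17, edgeR adjusted p 0.124). NFIB mutant replicate 2 was the lowest of its group. Eri3 RNA was 79.2, 93.0 and 77.5 against 78.2, 79.4 and 111 CPM, with overlap.

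Fgf10, a growth factor of lung mesenchyme that directs branching of the airways, lay 98633 bp from a peak on chromosome 13 (118570739 to 118571577). The peak had 8.13, 9.14 and 10.7 CPM in NFIB mutant, 0.413, 1.11 and 0.290 CPM in CARM1 knockout and 0.124 to 0.191 CPM in TKO libraries (log2 fold change -3.92, edgeR adjusted p 0.150). Fgf10 RNA was 106, 88.3 and 7.24 CPM in NFIB mutant and 8.88, 18.5 and 2.02 CPM in CARM1 knockout libraries. NFIB mutant replicate 3 was as open as the others at the peak, but its RNA fell within the CARM1 knockout range.

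The promoter of H2-Ab1, which encodes the beta chain of an MHC class II molecule, had 6.37, 5.15 and 6.83 CPM in NFIB mutant and 0.827, 0.653 and 0.653 CPM in CARM1 knockout libraries (chromosome 17, 34257687 to 34258664, log2 fold change -3.10, edgeR adjusted p 0.150). Its RNA lay the other way, with 4.34, 1.17 and 6.74 CPM in CARM1 knockout and 0.0608, 0 and 0 CPM in NFIB mutant libraries. Class II genes are read in leukocytes, and Ptprc, a marker of all leukocytes, had 29.1, 1.87 and 57.7 CPM in CARM1 knockout and 0.365, 25.8 and 0.191 CPM in NFIB mutant RNA. The cells had been sorted for the tdTomato reporter, a gate that leaves out cells Cre did not reach, and the part of leukocytes in the RNA of H2-Ab1 was not tested. Promoter peaks of 4 leukocyte markers summed to 8.86 to 9.79 CPM in CARM1 knockout and 4.24 to 8.59 CPM in NFIB mutant ATAC-seq libraries, while the 7 leukocyte gene loci tested had a median log2 fold change of -0.18, so the list had no single direction. The H2-Ab1 peak and the peak nearest Ddr1 both lie in the MHC stretch from H2-K1 to H2-T3 (33996017 to 36190287). Of its 281 peaks 25 were higher in NFIB mutant tumors at an unadjusted p under 0.05 (edgeR) and 12 in CARM1 knockout. Over all peaks these shares were 2.59% and 3.55%. Summed over the stretch, the ratio of NFIB mutant over CARM1 knockout was 1.05. The part of strain in the lean of these peaks was not tested.

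Among the other named peaks of this side, 1 in an intron of the actin nucleator gene Cobl on chromosome 11 (12374984 to 12375325) was not detected in CARM1 knockout libraries. It had 0.0517, 0 and 0.0484 CPM there, 2 reads at most, and 10.1, 4.72 and 6.42 CPM in NFIB mutant libraries, which is at least 91.4-fold higher against the highest floor of 3 reads per library. TKO libraries had 5.16, 3.43 and 0.549 CPM. The peak has 2 near copies in the genome. A peak in an intron of Nubpl, a factor of mitochondrial complex I assembly, on chromosome 12 (52126405 to 52127136) had 3.17, 7.80 and 5.08 CPM in NFIB mutant and 0.129, 0.0576 and 0 CPM in CARM1 knockout libraries. The potassium channel gene Kcnh6 on chromosome 11 held an intron peak (106031688 to 106032810) at 40.3, 35.8 and 42.0 CPM in NFIB mutant, 21.8, 15.4 and 17 CPM in CARM1 knockout and 57.1 to 61.0 CPM in TKO libraries. Part of this peak occurs in 500 or more near copies, where the search stopped, so the place of its reads is uncertain. The others were an intron of Ccdc85c on chromosome 12 (108222790 to 108224085, log2 fold change -3.06) and a site 195708 bp from Steap1 on chromosome 5 (5944782 to 5945286, -6.17), which has 5 near copies. The other 20 of the 24 named peaks had no near copy.

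**Figure D3:**
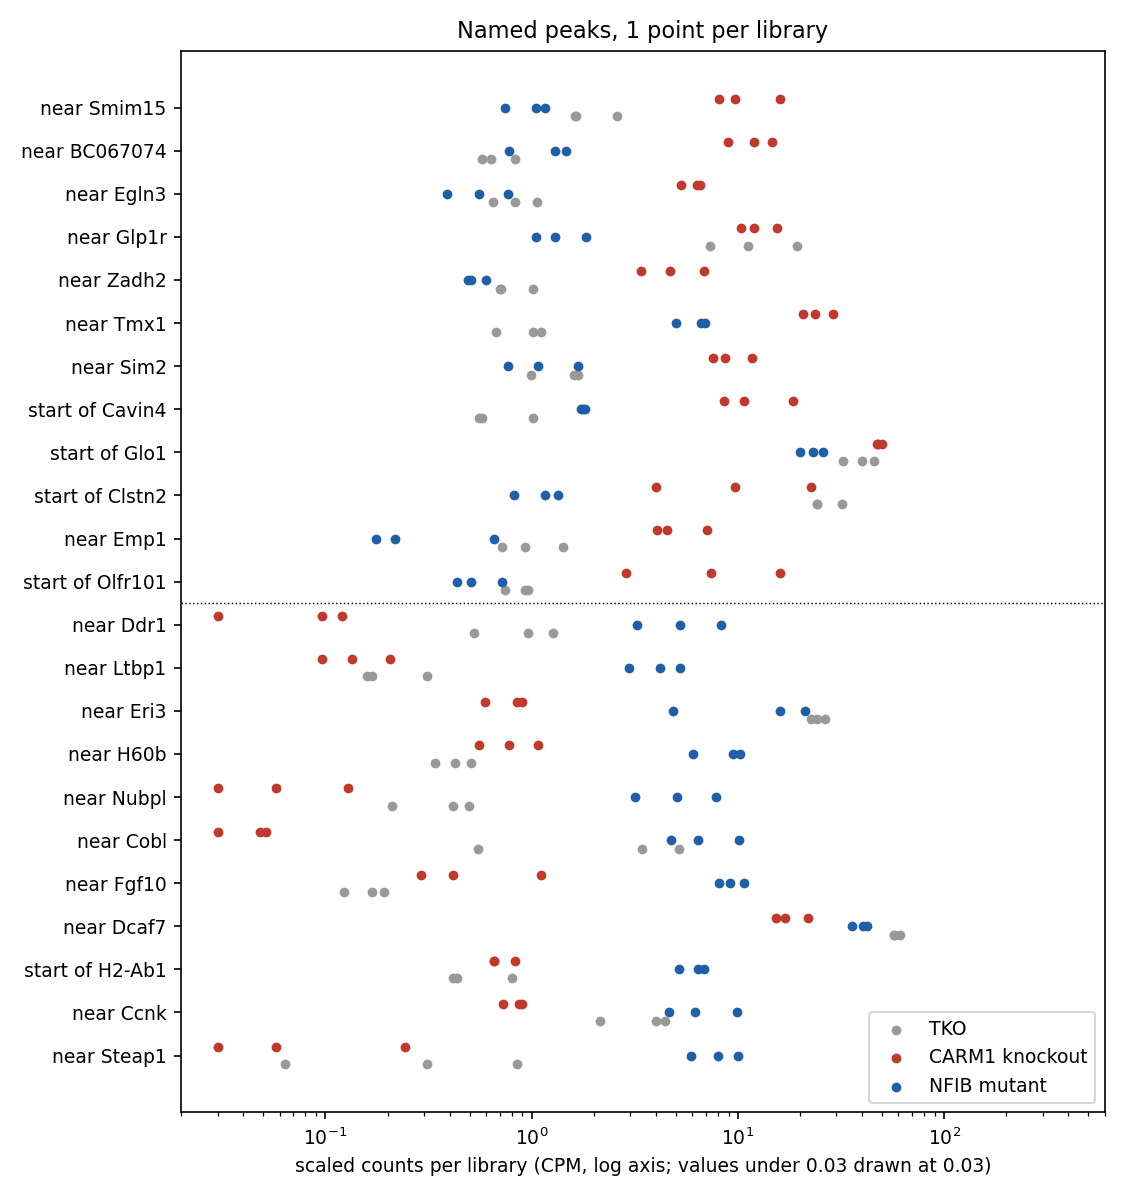
Each of the 23 rows is a named peak, labelled by its nearest start site, and each point is 1 library in scaled CPM on a log axis, in grey for TKO, red for CARM1 knockout and blue for NFIB mutant. The 12 rows above the dotted line leaned to CARM1 knockout and the 11 below to NFIB mutant, and the rows of Glp1r, Glo1, Clstn2, Eri3 and Dcaf7 are those with TKO above 7 CPM in every library.

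The RNA near the named peaks was read as a measure the rule did not use. Of the 24 nearest genes 21 could be tested, and 16 of these had a log2 fold change of the same sign as the peak. This count is given without the share over all peaks, and so describes these genes only. The RNA libraries of the mutants did not overlap, in the direction of the peak, for 5 of them, beside 7.43% and 8.15% of all genes with no overlap in the respective directions. No gene near them was called, and over all genes edgeR called 0 of 15514 (0%) between the mutants, with 821 higher in CARM1 knockout (5.29%) and 593 higher in NFIB mutant tumors (3.82%) at an unadjusted p under 0.05.

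Peaks were also summed per gene, from 5000 bp before the gene to 5000 bp after it. Of 17492 gene loci edgeR called none (0%), with a smallest adjusted p of 0.145, and 535 higher in CARM1 knockout (3.06%) and 507 higher in NFIB mutant tumors (2.9%) at an unadjusted p under 0.05, while DESeq2 called 171. The 6 loci per direction with the smallest p among those without overlap (6.2% and 6.95% of all loci) were taken. On the CARM1 knockout side they were Glp1r, Tmeff1, Comp, Glo1, BC067074 and Btbd9, with log2 fold changes of 0.67 to 2.40 and adjusted p of 0.145 to 0.184. Comp, a matrix protein of cartilage and tendon, had 30.2, 28.9 and 26.1 CPM in CARM1 knockout libraries, 17.2, 13.9 and 13.9 CPM in NFIB mutant and 20.1 to 22 CPM in TKO libraries. The difference lay mostly in its promoter peak, at 20.2 against 7.39 CPM, and its RNA was at or under 0.758 CPM in every mutant library.

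On the NFIB mutant side the loci were Nrros, Dcaf7, E030030I06Rik, Max, Ralyl and H2-Ob. Max encodes the partner with which MYC proteins bind DNA, and MYC family genes are often amplified in SCLC. Its locus on chromosome 12 (76937269 to 76962201, 3 peaks) had 51.2 to 60.3 CPM in TKO, 26.3, 43.7 and 33.4 CPM in NFIB mutant and 17.3, 16.1 and 14.8 CPM in CARM1 knockout libraries, 3 levels with no overlap (log2 fold change between the mutants -1.10, -1.5 to -0.70, edgeR adjusted p 0.184). Max RNA had the same order, with 63.7 to 95.2 CPM in TKO, 55.3, 68.0 and 60.5 CPM in NFIB mutant and 29.3, 31.1 and 24.7 CPM in CARM1 knockout libraries, and TKO and NFIB mutant overlapped (log2 fold change -1.11, adjusted p 0.268). Nrros, which presents latent TGF-beta on myeloid cells, had 26.1, 21.4 and 23.4 CPM in CARM1 knockout and 49.4, 38.4 and 50.8 CPM in NFIB mutant libraries, but its RNA was 18, 2.22 and 37.1 CPM against 0.851, 2.65 and 0.191 CPM, the other way. Ralyl, which encodes an RNA-binding protein, was highest in NFIB mutant replicate 3, with 1.32, 1.09 and 1.26 CPM against 6.34, 7.13 and 25.7 CPM, and its RNA was at 0.0608 CPM or less in all mutant libraries. The lean of Dcaf7 came from peaks in its neighbour Kcnh6, since its own promoter peak had 28.5 and 28.6 CPM in the mutants, and that of H2-Ob came from the H2-Ab1 promoter.

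Some lean ran along a chromosome. The stretch from Btbd9 to Glp1r on chromosome 17 (30215524 to 30940791), which holds Glo1, was chosen after its values had been seen and is described without a test of its own. Of its 59 peaks 52 were higher in CARM1 knockout and 15 of these had an unadjusted p under 0.05, against 0 on the NFIB mutant side. Over all peaks the shares at that p were 3.55% higher in CARM1 knockout and 2.59% higher in NFIB mutant tumors. Summed over the stretch, CARM1 knockout libraries had 226, 210 and 225 CPM, NFIB mutant libraries 113, 115 and 123 CPM and TKO libraries 232 to 253 CPM. The NFIB mutant libraries thus stood alone, and the ratio of the mutants' means was 1.88. It was 1.02 and 0.973 in the stretches of equal length before and after, and the RNA of Glo1 and Btbd9 was also higher in CARM1 knockout than in NFIB mutant libraries, Btbd9 at 51.5, 52.7 and 48.9 against 26, 36.2 and 44.4 CPM. In RNA the TKO libraries did not stand with CARM1 knockout, since Glo1 was at the NFIB mutant level there and Btbd9 had 28.0, 26.1 and 51.5 CPM. Among 4554 windows of 500000 bp, of which edgeR called 0, the window from 30500001 had the smallest p (log2 fold change 1.06, adjusted p 0.110). A segment with Glo1 is duplicated in some inbred mouse strains. The number of copies in these animals was not measured, and its part in the lean was not tested.

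The second stretch holds the Raet1 and H60 genes on chromosome 10 (22113050 to 22374139), whose products are ligands of the receptor NKG2D, by which natural killer cells detect stressed cells. Chosen in the same way, it had 25 peaks, of which 24 were higher in NFIB mutant tumors and 18 of these had an unadjusted p under 0.05. Over all peaks 2.59% were higher in NFIB mutant tumors at that p. The sums were 273, 303 and 224 CPM in CARM1 knockout libraries, 417, 710 and 662 CPM in NFIB mutant and 131 to 162 CPM in TKO libraries, so both mutants stood above TKO and the NFIB mutant libraries above all others. The ratio of NFIB mutant over CARM1 knockout was 2.24, and it was 1.05 in the stretch before and 2.53 in the stretch after. A named peak in an exon of Raet1e (22311984 to 22313124) had 6.07, 10.3 and 9.50 CPM in NFIB mutant against 0.775, 1.08 and 0.556 CPM in CARM1 knockout and 0.340 to 0.510 CPM in TKO libraries. H60b RNA was 4.07, 8.20 and 12.1 CPM in NFIB mutant and 0.474, 0.175 and 0 CPM in CARM1 knockout libraries, while Raet1e RNA overlapped at 15.6, 58.2 and 35.6 against 18.4, 20.1 and 9.89 CPM. The RNA of E030030I06Rik, a named locus in this stretch, was low and lay the other way, at 0.304, 0.432 and 0.254 CPM in NFIB mutant against 1.63, 2.45 and 0.618 CPM in CARM1 knockout libraries. The peak in Raet1e had no near copy in the genome, and the other peaks of the stretch were not searched. Genes of this cluster differ between mouse strains, and the part of strain in the lean was not tested.

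**Figure D4:**
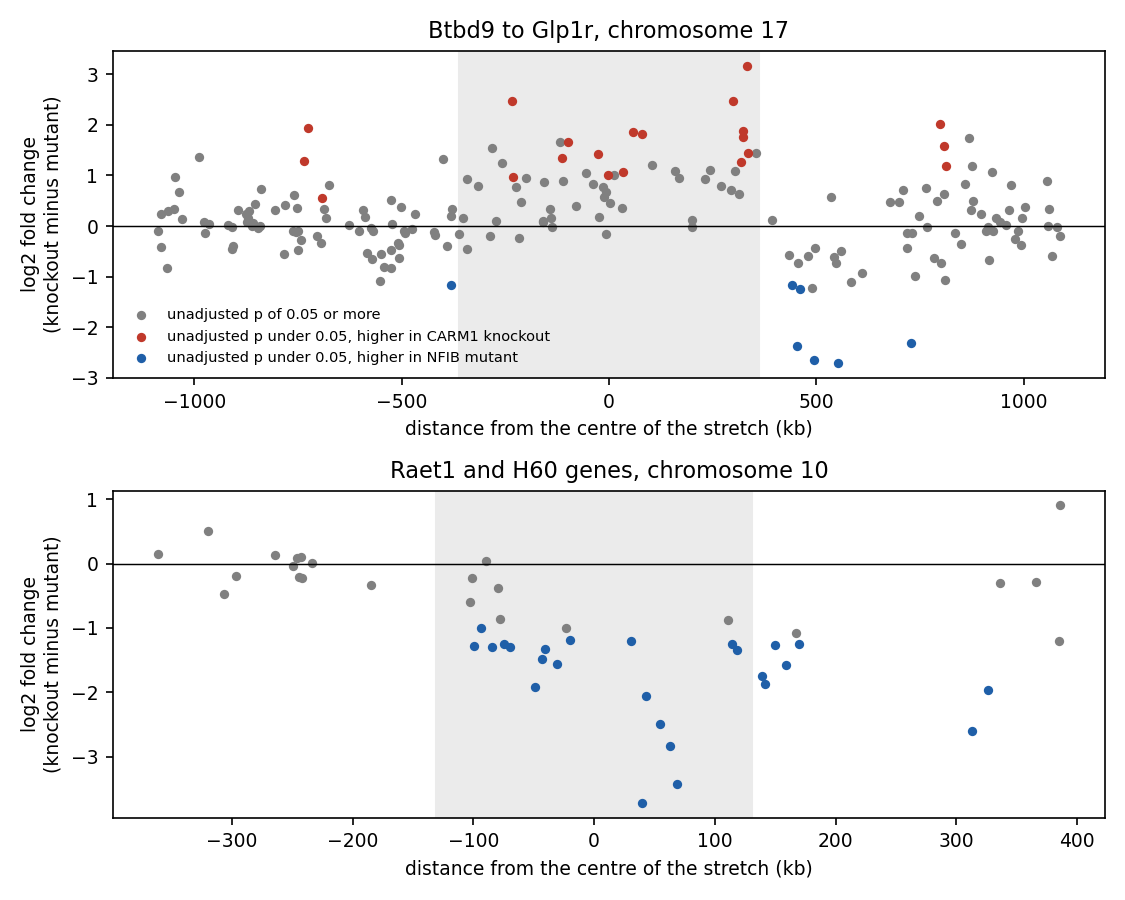
Each point is 1 peak by its distance in kb from the centre of the stretch and its log2 fold change, CARM1 knockout minus NFIB mutant, coloured where the unadjusted p was under 0.05. Inside the grey band from Btbd9 to Glp1r (top) 52 of 59 peaks lie above 0, and inside the band of the Raet1 and H60 genes (bottom) 24 of 25 lie below 0.

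Another place was called when the TKO libraries were left out of the fit, while in the fit of all 9 its peaks had an unadjusted p of 0.011 to 0.039. It consists of 4 adjoining peaks on chromosome 10 from 3109453 to 3117133, which made 4 of the 16 calls of that fit. They summed to 173, 150 and 191 CPM in CARM1 knockout and 1.85, 3.95 and 2.59 CPM in NFIB mutant libraries, while TKO had 8.22, 5.44 and 1255 CPM. TKO replicate 3 was thus far above the rest and the other 2 TKO libraries were near the NFIB mutant libraries. Each of the 4 peaks has 94 to 186 near copies in the genome, so the reads may not come from this place. Of the other 12 calls 9 were among the 24 peaks of the rule, and the rest lay near Atp11b on chromosome 3, Mbp on chromosome 18 (a peak with 151 near copies) and Pllp on chromosome 8, the last higher in NFIB mutant tumors.

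Chromosome 8 as a whole leaned to CARM1 knockout. The median level of its 5933 peaks, relative to all peaks on the log2 scale, was 0.058, 0.106 and 0.070 in CARM1 knockout and -0.088, -0.073 and -0.080 in NFIB mutant libraries. Of 20 chromosomes it was the only one without overlap between the mutants. At an unadjusted p under 0.05 it had 387 peaks higher in CARM1 knockout (6.52%, beside 3.55% of all peaks). On the other side, 47 were higher in NFIB mutant tumors (0.792%, beside 2.59%). The median log2 fold change of the chromosome was 0.23. The RNA of its genes stood the same way, at 0.069, 0.206 and 0.022 in CARM1 knockout against -0.109, -0.089 and -0.046 in NFIB mutant libraries. Of 1279 windows of 2000000 bp edgeR called none (0%), with 31 higher in CARM1 knockout (2.42%) and 18 higher in NFIB mutant tumors (1.41%) at an unadjusted p under 0.05 and a smallest adjusted p of 0.967, and DESeq2 called none either. The mutants' libraries did not overlap in 6.02% of windows, higher in CARM1 knockout, and in 6.18%, higher in NFIB mutant tumors. Of the 6 named windows on the CARM1 knockout side 5 lay on chromosome 8, with log2 fold changes of 0.22 to 0.38, and the sixth began at 2000001 on chromosome 17. On the other side the window of the Raet1 and H60 genes came first (-0.83), and the rest, on chromosomes 3, 6, 11 and 15, had -0.25 to -0.43. The Comp locus, Rbl2 and Prmt7 lie on chromosome 8.

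Chromosome medians also tied the assays to each other. Over the 20 chromosomes, the ATAC-seq profile of each of the 6 mutant libraries was most like the RNA-seq profile with its own genotype and number, with Pearson's r of 0.852 to 0.967, while the other 30 pairs had -0.606 to 0.510. The Results state that both assays were run on the same tumors. Medians over a chromosome follow the number of its copies as well as its activity, and copy number was not measured here. On chromosome 15, where NFIB mutant tumors stood higher by a median of 0.16 on the log2 scale, NFIB mutant replicate 1 was at 0.198 and replicate 2 at -0.069, within the range of -0.100 to -0.024 of the CARM1 knockout libraries.

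**Figure D5:**
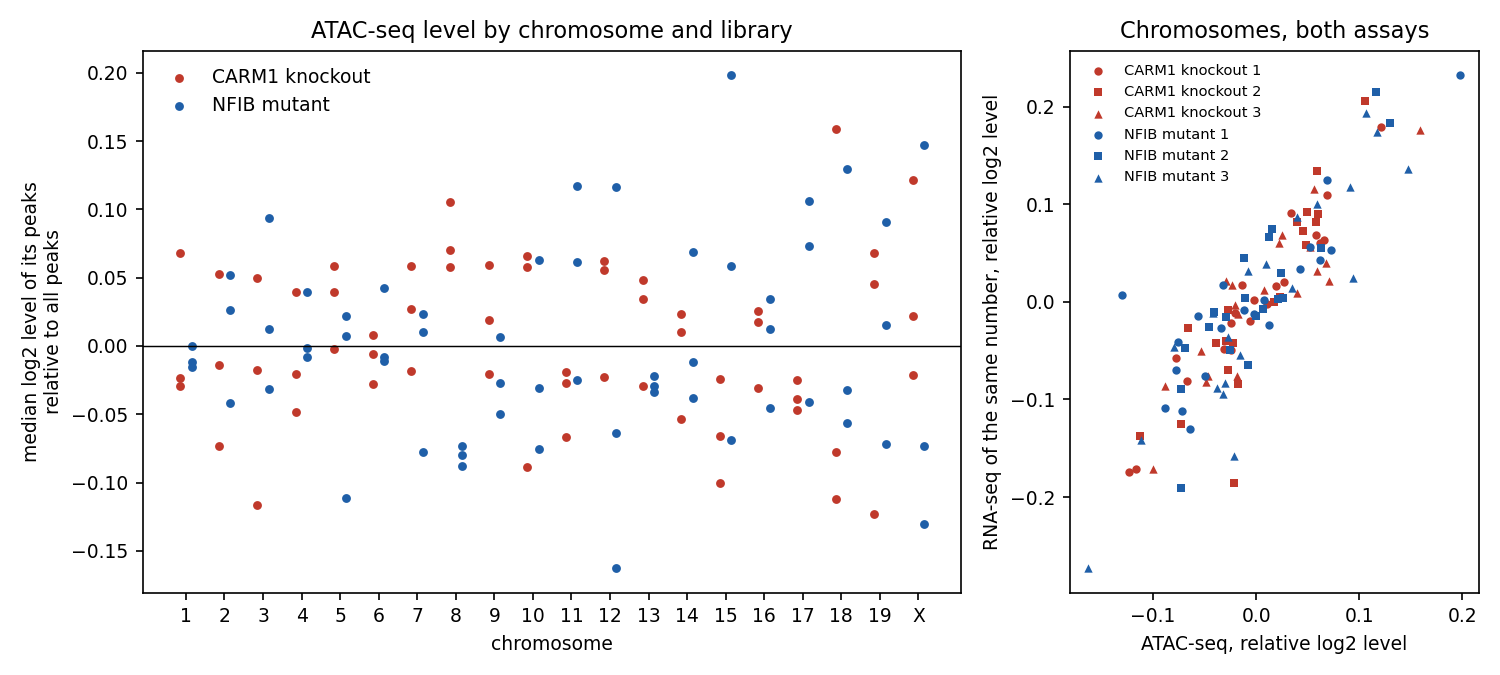
On the left each point is the median log2 level of the peaks of 1 chromosome in 1 library relative to all peaks, and chromosome 8 is the only one where the 3 red points (CARM1 knockout, 0.058 to 0.106) lie above the 3 blue points (NFIB mutant, -0.088 to -0.073). On the right the same levels are set against those of the RNA-seq library of the same genotype and number, 1 point per chromosome and tumor, with r of 0.852 to 0.967 within each tumor.

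Near the engineered alleles the share of peaks higher in CARM1 knockout was above, and that higher in NFIB mutant tumors below, the share of all peaks, and no test of these shares was made. Within 10000000 bp of Carm1, 36 of 804 peaks were higher in CARM1 knockout tumors at an unadjusted p under 0.05 (4.48%, beside 3.55% of all peaks) and 15 higher in NFIB mutant tumors (1.87%, beside 2.59%). Around Nfib, 30 of 577 were higher in CARM1 knockout (5.2%) and 8 higher in NFIB mutant tumors (1.39%). Median log2 fold changes were 0.08 and 0.05. Chromosome 9 as a whole, which holds Carm1, had 4.36% and 2.38%, and chromosome 4, which holds Nfib, 3.37% and 2.64%. Of the conditional alleles, Rbl2 had 24.8, 25.1 and 23.1 CPM in CARM1 knockout and 18.5, 18.6 and 17 CPM in NFIB mutant libraries over its 2 peaks (log2 fold change 0.43, edgeR adjusted p 0.624). Rbl1 RNA was 1.79 CPM in NFIB mutant replicate 2 and 50.6 to 55.4 CPM in the other mutant libraries, while TKO libraries had 12.9, 1.49 and 67.8 CPM. Rbl2 RNA was 8.17 to 13.1 CPM in CARM1 knockout, 9.09 to 17.1 CPM in NFIB mutant and 16.4 to 24.3 CPM in TKO libraries.

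Lists of marker genes placed the libraries by cell type, with gene loci as the unit and 3.06% and 2.9% of all loci at an unadjusted p under 0.05 on either side. Of 12 neuroendocrine loci 4 were higher in CARM1 knockout tumors at that p (Chgb, Insm1, Ncam1 and Scg3) and none in NFIB mutant tumors, with a median log2 fold change of 0.88 beside -0.002 over all loci. Insm1, a transcription factor of neuroendocrine cells, had 12.1, 13.5 and 26.6 CPM in CARM1 knockout and 13.2, 8.22 and 5.76 CPM in NFIB mutant libraries, below the 95.6 to 115 CPM of TKO. Without CARM1 knockout replicate 3, the tumor that kept Chga RNA, the list had 1 such locus and a median of 0.33. Without NFIB mutant replicate 2 it also had 1, and without CARM1 knockout replicate 1 it had 8. Promoter peaks of the list summed to 66.6, 124 and 140 CPM in CARM1 knockout libraries, 62.4, 42.2 and 50.8 CPM in NFIB mutant and 479 to 621 CPM in TKO libraries.

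The 34 Hox loci tested, which set position along the body axis, went the other way, with 7 higher in NFIB mutant tumors at an unadjusted p under 0.05 and a median of -0.57. Neighbouring Hox genes share peaks, so these are not 34 separate values. Hoxa10 had 3.44, 4.64 and 3.63 CPM in CARM1 knockout and 9.33, 20.3 and 8.43 CPM in NFIB mutant libraries (log2 fold change -1.70, edgeR adjusted p 0.368), without overlap. Hoxa11 had 2.08, 3.26 and 2.17 against 5.34, 13.6 and 6.98 CPM. NFIB mutant replicate 2 was the highest at both, and without it 2 loci were at that p and the median was -0.30. The count was 3 or 4 without any 1 of the CARM1 knockout libraries and 11 without NFIB mutant replicate 3. In the Hoxc cluster NFIB mutant replicate 2 alone was high, at 56.3 CPM against 15.2 and 16.3 CPM in the other NFIB mutant libraries and 13.3 to 16.7 CPM in CARM1 knockout.

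Of the 14 fibroblast loci 1, Col1a1, was higher in CARM1 knockout tumors (109, 105 and 147 against 74.0, 74.5 and 104 CPM), with a list median of 0.03. The count was 0 without CARM1 knockout replicate 1 or NFIB mutant replicate 1 and 3 without CARM1 knockout replicate 2. Of 4 mesothelial loci 2, Msln and Upk3b, were higher in NFIB mutant tumors, the other 2, Wt1 and Lrrn4, had log2 fold changes of 0.48 and 0.62, and the list median was -0.04. The count was 1 with any mutant library left out other than CARM1 knockout replicate 1. Msln, the mesothelin gene, had 61.6, 44.1 and 73.8 CPM there and 12.4, 37.8 and 23.2 CPM in CARM1 knockout libraries. The endothelial receptor Kdr had 8.32, 11.6 and 8.05 CPM in CARM1 knockout and 3.21, 4.0 and 5.29 CPM in NFIB mutant libraries. It was the 1 of 6 endothelial loci at that p, the list median was -0.12, and the list had no such locus without CARM1 knockout replicate 2, NFIB mutant replicate 1 or NFIB mutant replicate 2. No locus among the 7 leukocyte, 9 lung epithelium, 8 smooth muscle, 5 skeletal precursor and 5 glial markers tested had an unadjusted p under 0.05 from edgeR. Without NFIB mutant replicate 3, 2 of the lung epithelium loci were higher in NFIB mutant tumors at that p and 1 of the smooth muscle loci was higher in CARM1 knockout, and 1 leukocyte locus was under it without CARM1 knockout replicate 2 or NFIB mutant replicate 2. In RNA the NFIB mutant replicate 1 library stood apart in the lung epithelium list, with a median of 112 CPM over the 10 genes of that list. No other mutant library exceeded 7.67 CPM. NFIB mutant replicate 1 also had 1737 CPM of Sftpb, a surfactant protein gene, against 0.254 to 35.9 CPM in the other mutant libraries. The part of lung epithelium in the lean of other loci was not tested. The smooth muscle list leaned to CARM1 knockout in RNA, with a median log2 fold change of 1.94 over the 7 genes tested. Its library medians were 21.4, 10.3 and 30.7 CPM in CARM1 knockout and 2.86, 3.79 and 21.5 CPM in NFIB mutant libraries, which overlapped. No gene of it was called, and its part in the lean of other loci was not tested either. Foxa1, a pioneer factor of lung epithelium and 1 of 8 genes taken from the text of the study, had 11.9, 46.8 and 32.7 CPM in CARM1 knockout and 15.4, 12.6 and 8.54 CPM in NFIB mutant libraries, which overlapped (log2 fold change 1.33, edgeR unadjusted p 0.011, adjusted p 0.680). The other 7 had an unadjusted p over 0.05, and without CARM1 knockout replicate 1 the count under it was 3 of the 8. The mutants' libraries did not overlap in 2 of the 8, higher in CARM1 knockout, and in 0 the other way. Over all loci these shares were 6.2% and 6.95%. Each of the 4 NFI genes also had an unadjusted p over 0.05, with log2 fold changes of -0.19 to 0.05. Of 9 arginine methyltransferase genes Prmt7 alone was under 0.05, at 36.4, 39.0 and 40.9 against 33.1, 32.3 and 31.2 CPM, and the list median was 0.17. The list had no such locus without CARM1 knockout replicate 2 or 3 or NFIB mutant replicate 2 or 3, and 2 without NFIB mutant replicate 1.

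The leaning peaks were then read for their position and for the level in TKO, whose libraries share the model and so had a part in the p. Of peaks at an unadjusted p under 0.05, 20.7% of those higher in CARM1 knockout lay within 1000 bp of a start site, beside 19.9% of all peaks, and 12.9% of those higher in NFIB mutant tumors. The TKO mean lay below both mutants in 62.0% of the peaks higher in NFIB mutant tumors and in 39.1% of those higher in CARM1 knockout, beside 50.4% of all peaks, and above both mutants in 16.2% and 43.3%, beside 44.2%. No test of these shares was made.

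The letters in the middle 300 bases of the peaks were compared in the same way, again without a test. The AP-1 letters TGANTCA stood in 31.2% of the peaks higher in NFIB mutant tumors, 22.7% of those higher in CARM1 knockout and 23.8% of all. The median log2 fold change of peaks with the AP-1 letters minus that of peaks without was -0.11, and it was -0.01 without NFIB mutant replicate 3, -0.04 without CARM1 knockout replicate 3 and -0.18 without NFIB mutant replicate 2. The TEAD letters GGAATG stood in 24.4% and 17.6%, beside 19.1% of all, and the RUNX letters TGTGGTT in 7.87% and 12.7%, beside 8.69%. Measured as the log2 level of a library relative to the mean of the 6 mutant libraries, the median of peaks with the TEAD letters minus that of peaks without was 0.085 in NFIB mutant replicate 3 and -0.032 to -0.003 in the other 5. For the RUNX letters this difference was 0.005, 0.056 and -0.023 in CARM1 knockout libraries and 0.009, -0.053 and -0.021 in NFIB mutant libraries. The letters TTGGCA of the NFI half-site stood in 19.1% and 21.5%, beside 21.3% of all peaks. The full NFI site, TTGGC and GCCAA with 5 bases of any kind between them, was in 0.099% of all peaks, 110 in number, too few to compare. The E-box was searched as CAGCTG, found in 22.7% of all peaks, and GATA as AGATAA, found in 13%. In the same order, the homeobox motif, as TAATTA, was in 7.03% and 5%, beside 6.22% of all peaks. The forkhead motif, as TGTTTAC, was in 5.01% and 5.89%, beside 4.78%. The ETS motif, as CCGGAAGT, was in 0.661% and 0.558%, beside 0.793% of all peaks. The CRE motif, as TGACGTCA, was in 0.209% and 0.660%, beside 0.568%. The AP-1 letters do not occur within the CRE letters. Of the 12 named peaks per side TEAD letters were in 2 on the CARM1 knockout and 6 on the NFIB mutant side, and AP-1 letters in 1 and 4. The NFI half-site was in 4 and 1, the E-box in 3 and 1, GATA in 3 and 0, forkhead in 2 and 0, CRE in 1 and 0 and RUNX in 1 and 1, and the other motifs were in none. Of the 7 sequences shown, that of Glp1r alone holds the TEAD letters and none holds those of AP-1.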

How the data were processed

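ATAC-seq and RNA-seq libraries of 3 genotypes with 3 animals each were used. The authors deposited unnormalized read counts on 1 merged set of peaks and unnormalized gene counts from htseq-count. Per the Methods, ATAC-seq reads were mapped to mm10 with Bowtie2, duplicates were removed with Picard, and regions of likely copy number change were taken out of the MACS2 peaks. The processing notes name Genrich and featureCounts instead, and the file header names featureCounts 1.6.3, so the peak caller is not settled. Genotypes come from the labels and column names, and no column belonged to another sample.

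The main tool was edgeR 4.0.16 in R 4.3.3 (TMM, filterByExpr, robust quasi-likelihood test, Benjamini-Hochberg adjustment over all features) in 1 model of all 9 libraries, which dropped 548 peaks. Depth was 26917178 to 47653979 reads per ATAC-seq library. CPM were scaled by the TMM factors. RNA calls needed a log2 fold change of 0.8 or more in size, and the 5 summary entries of the gene table stayed out. An exact permutation test of 3 libraries against 3 cannot give a p under 0.1. Named peaks were the 12 per direction, and gene loci and windows the 6 per direction, with the smallest p as described, together with the genes of the lists. Of these, 1 peak and 1 marker gene are not reported here by themselves and stay in the counts. Gene positions are of GENCODE and sequences of RefSeq, both GRCm38, and near copies were searched with BLAST. Members and lists were chosen with earlier results of these data known. Alternatives were DESeq2 1.42.0, other scalings and filters, a GC offset, a replicate block, leaving out each library, and an offset for the chromosome medians chosen after seeing the data. Simulated counts with known changes served to test each fit. Over same-numbered CARM1 knockout and NFIB mutant libraries, deviations from the group means had correlations of -0.051, -0.076 and 0.030, so the numbers did not pair them.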

Additional observations from a re-analysis of the deposited data

How the results depend on the processing

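No peak was called with scaling by start-site peaks of stable genes, with no filter, with the GC offset, with no minimum fold change or with the offset for the chromosome medians. With the replicate block 0 peaks were called (smallest adjusted p 0.403), and with the block and the GC offset 0 as well (0.405). Called peaks were 1075 by DESeq2, 16 with the 6 libraries of the mutants, 7 with library totals (6 higher in NFIB mutant) and 8 with at least 10 reads in every library. Leaving out each library in turn gave 0 to 50. DESeq2 called 171 gene loci and library totals 15 (14 higher in CARM1 knockout), and leaving out libraries gave 0 to 12, the 12 without TKO replicate 3. The 6 libraries called 1 window of 2000000 bp, and leaving out libraries gave 0 to 2, the 2 without TKO replicate 3. The median absolute log2 fold change was 0.268 under the filter of 10 reads and 0.353 to 0.404 with a library left out. The share of peaks whose 95% interval lay within 1 of 0 was 21.4% with 6 libraries, 20.9% by DESeq2, 31.2% with at least 10 reads in every library and 11.7 to 20.4% with a library left out. Of the 24 named peaks, DESeq2 called 24, the fit without TKO replicate 3 called 20, the 6 libraries 9, at least 10 reads in every library 8 and library totals 7, and none changed direction in any alternative. Scaling moved the median of all peaks by at most -0.07. The cause of the difference between edgeR and DESeq2 was not tested. Depth limits the peaks under 1 CPM most, where 0.31% of intervals lay within 1 of 0.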
